A study of Homo sapiens with 12 samples.

Results

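HT29 is an established cell line from a human colon adenocarcinoma. On arrays of these cells 1752 of the 28869 probe sets (6.07%) named 2 or more genes. They were chosen by annotation alone: every probe set whose entry in the array's probe-to-gene table joined several gene symbols was kept, each on its own and without averaging. A probe set is a group of short probes summarized into 1 value. The 12 arrays form 4 groups of 3: untreated HT29 control cells, taken as 0 h, and HT29 cells after 8, 24 or 48 h with 70 nM methotrexate. The cells carried no other labelled agent or genetic change, and the sample titles call the replicates biological, without saying whether they were separate cultures, so p-values measure the spread between these samples. Time with the drug and time in culture changed together, and every comparison with the control rests on the same 3 control arrays.

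A probe set can name several genes for different reasons. Recently duplicated genes can be so alike that short probes bind all copies. Most small nucleolar RNAs (snoRNAs) guide chemical modification of ribosomal or spliceosomal RNA. Many, but not all, lie inside an intron of a host gene, and probes for these fall within the host's locus. A read-through transcript runs across neighbouring genes and is annotated under a symbol of its own. Methotrexate, an antifolate, depletes the folate cofactors of thymidylate and purine synthesis, on which DNA replication depends. Replication-dependent histone genes, many of them present as near-identical copies in clusters, are transcribed mainly while DNA is replicated.

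Of the 1752 probe sets, 896 named 2 symbols, 268 named 3, 160 named 4, 120 named 5 and 308 named 6 or more, up to 18. Together they held 2217 distinct symbols in 1005 distinct combinations, and 1111 probe sets shared their exact combination with at least 1 other, so probe sets are not independent of each other. By the names, 1165 joined copies with a common stem, 215 a gene and a read-through or compound locus, 120 a small RNA with a host or copies of it, 82 an unnamed locus, 8 an antisense, intronic or divergent transcript and 162 other genes. The named genes overlapped in the RefSeq annotation for 346 probe sets, lay within 1000000 bases of each other for 478, farther apart on 1 chromosome for 481 and on different chromosomes for 431, and 16 could not be placed. A pseudogene was among the names of 650. Because 1 value stands for several genes, no value below can be assigned to a single copy, and signal from overlapping transcripts cannot be separated here.

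The sequences just upstream show how alike such copies can be. RefSeq sequences of GRCh38.p14, 250 bases up to the base before the annotated start and written on the gene's strand, were compared without gaps, with a shift of up to 3 bases. The pairs below are shown because the probe sets naming them changed. In the H4C11 and H4C12 pair, histone H4 genes of the chromosome 6 cluster, 245 of 250 bases were equal. In the pair HSPA1A and HSPA1B, genes of the stress-inducible chaperone Hsp70, 235 of 249 were. Capitals mark the positions that differ within each pair.
H4C11 (chr6:27823842-27824091, plus strand): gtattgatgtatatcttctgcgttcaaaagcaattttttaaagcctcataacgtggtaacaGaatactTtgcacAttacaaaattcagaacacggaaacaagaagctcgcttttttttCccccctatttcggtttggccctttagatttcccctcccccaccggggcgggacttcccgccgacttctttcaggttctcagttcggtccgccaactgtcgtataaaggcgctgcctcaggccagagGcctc
H4C12 (chr6:27831561-27831810, minus strand): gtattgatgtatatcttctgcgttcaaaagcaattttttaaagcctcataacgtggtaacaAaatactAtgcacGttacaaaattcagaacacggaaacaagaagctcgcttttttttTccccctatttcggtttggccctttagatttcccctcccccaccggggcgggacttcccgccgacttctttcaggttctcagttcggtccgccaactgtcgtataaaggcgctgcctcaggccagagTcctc
HSPA1A (chr6:31815293-31815542, plus strand): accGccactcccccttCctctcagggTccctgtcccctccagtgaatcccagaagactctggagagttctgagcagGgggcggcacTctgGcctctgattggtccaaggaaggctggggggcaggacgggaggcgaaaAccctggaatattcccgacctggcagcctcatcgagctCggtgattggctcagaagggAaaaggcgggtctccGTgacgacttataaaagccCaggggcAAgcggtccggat
HSPA1B (chr6:31827488-31827737, plus strand): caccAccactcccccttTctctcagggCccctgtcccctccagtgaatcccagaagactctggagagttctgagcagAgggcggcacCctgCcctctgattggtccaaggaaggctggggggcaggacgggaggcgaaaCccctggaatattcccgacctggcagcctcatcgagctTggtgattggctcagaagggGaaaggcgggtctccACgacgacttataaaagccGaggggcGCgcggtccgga

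For H4C14 and H4C15 on chromosome 1 all 250 bases were equal, and for H2AC18 and H2AC19 all 249 compared, so 1 copy of each pair is printed, in lower case. By contrast, H4C11 and H4C14, which both encode histone H4, had only 73 of 249 equal bases at the best shift.
H4C14 (chr1:149832407-149832656, plus strand): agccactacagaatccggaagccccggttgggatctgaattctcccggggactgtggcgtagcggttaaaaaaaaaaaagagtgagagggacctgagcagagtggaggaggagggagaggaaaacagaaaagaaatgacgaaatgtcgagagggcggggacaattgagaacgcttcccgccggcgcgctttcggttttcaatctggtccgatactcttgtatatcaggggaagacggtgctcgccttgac
H2AC18 (chr1:149842751-149843000, minus strand): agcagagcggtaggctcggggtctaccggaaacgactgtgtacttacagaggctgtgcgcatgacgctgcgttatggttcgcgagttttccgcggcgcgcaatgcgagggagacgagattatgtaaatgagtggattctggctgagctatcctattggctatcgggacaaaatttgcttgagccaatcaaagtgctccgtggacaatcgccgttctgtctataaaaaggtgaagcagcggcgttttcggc

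Other probe sets name neighbouring genes that are not copies. H3C10 and H2AC13, a histone H3 and a histone H2A gene, shared 74 of 247 upstream bases. Both windows held CCAAT and TATAAA, counted on both strands and marked in capitals.
H3C10 (chr6:27809801-27810050, plus strand): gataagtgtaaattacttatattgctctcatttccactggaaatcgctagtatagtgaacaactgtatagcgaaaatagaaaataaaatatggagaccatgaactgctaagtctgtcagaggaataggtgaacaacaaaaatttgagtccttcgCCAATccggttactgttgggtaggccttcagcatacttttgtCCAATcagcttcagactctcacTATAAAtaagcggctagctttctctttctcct
H2AC13 (chr6:27807923-27808172, plus strand): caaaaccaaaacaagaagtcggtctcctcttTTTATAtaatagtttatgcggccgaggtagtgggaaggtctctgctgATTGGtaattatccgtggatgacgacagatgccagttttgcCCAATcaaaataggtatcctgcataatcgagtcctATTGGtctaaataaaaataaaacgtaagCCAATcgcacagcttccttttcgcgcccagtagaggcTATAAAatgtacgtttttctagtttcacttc

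CCAAT on either strand was present in 32.0% of all 35116 promoter windows of this length and TATAAA in 10.7%. Neither H4C14 nor H4C15 held either of these strings, whereas the windows of H4C11 and H4C12 each held TATAAA once and no CCAAT. GAANNTTC, searched on both strands, was present once each in the windows of HSPA1A and HSPA1B and in 5.78% of all windows. Promoter sequences were found for 1285 of the 2217 symbols. MicroRNA sequences were found for 34 symbols. The 3 mature microRNAs named with a host gene or pseudogene in probe sets described at the end are printed with the seed (bases 2 to 8) in capitals, and no seed is shared among them.
hsa-miR-224-5p: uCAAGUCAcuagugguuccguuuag
hsa-miR-27b-3p: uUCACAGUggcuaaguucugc
hsa-miR-492: aGGACCUGcgggacaagauucuu

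The values are log2 ratios of each array to the median of the controls, so levels before the drug, and with them any check of the cell line by marker level, are lost. Differences between groups were tested with limma over all 28869 probe sets and counted as called where the p adjusted by Benjamini-Hochberg was under 0.05. The median standard error of a difference was 0.0599 for the probe sets naming several genes and 0.0628 over all. The 48 h replicate 3 array stood apart, with root-mean-square differences of 0.212 and 0.181 from its replicates over these probe sets against 0.0976 to 0.15 within all other pairs. Of 8 colon epithelial markers KRT20 was called, higher at 24 and 48 h. Of 5 measured leukocyte markers CD68 was called, higher at all 3 times, and none of 6 fibroblast and 3 endothelial markers was; the part of other cells in these results was not tested. In bulk RNA, fewer cells expressing a gene and less RNA per cell cannot be told apart.

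More probe sets naming several genes were called at 48 h than at 8 or 24 h. At 8 h 163 were higher and 146 lower than in the controls, 17.6% of them, where 17.2% of all probe sets were called. At 24 h 123 were higher and 94 lower, 12.4% against 11.7% of all. At 48 h 258 were higher and 159 lower, 23.8% against 18.8% of all. The 19310 probe sets naming a single gene were called in 22.1%, 15.1% and 23.7% at the 3 times. Counted as distinct symbol combinations, these were 117 higher and 98 lower at 8 h, 81 and 65 at 24 h, and 155 and 101 at 48 h. Without the 48 h replicate 3 array 191 were higher at 8 h, 149 at 24 h and 267 at 48 h.

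Between 8 and 24 h the step brought 154 higher and 184 lower, 19.3% against 14.6% of all probe sets, and the step from 24 to 48 h 116 higher and 58 lower, 9.93% against 7.64% of all (4.08% higher and 3.56% lower). An F test over the 4 groups called 620, or 35.4%, against 29.3% of all. Most changes were small: at least 2-fold changes were called for 4 probe sets up and 2 down at 8 h, 7 up and 9 down at 24 h, and 7 up and 6 down at 48 h. Called higher at all 3 times were 49 probe sets of 33 symbol combinations, and called lower at all 3 were 24 of 17. Another 132 were called at 8 h alone among the 3 times and 183 at 48 h alone. These patterns over time were not counted over all probe sets, so whether their shares differ from those of the whole array was not tested. The median log2 fold change was 0.016 at 8 h, 0.008 at 24 h and 0.014 at 48 h, against 0.018, 0.007 and 0.004 over all probe sets.

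Among the 1165 probe sets naming same-stem copies, 83 were higher and 68 lower at 8 h, 69 and 59 at 24 h, and 171 and 110 at 48 h, so that 151, 128 and 281 were called (24.1% at 48 h), at 8 and 24 h a smaller share and at 48 h a larger one than the 17.2%, 11.7% and 18.8% of all probe sets. Among the 120 naming a small RNA, 26 were higher and 3 lower at 8 h, 12 and 11 at 24 h, and 18 and 5 at 48 h, or 24.2%, 19.2% and 19.2% called. The 215 naming a read-through locus gave 27 higher and 25 lower at 8 h, 23 and 10 at 24 h, and 34 and 19 at 48 h, or 24.2%, 15.3% and 24.7% called. The difference between these classes was not tested.

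**Figure D1:**
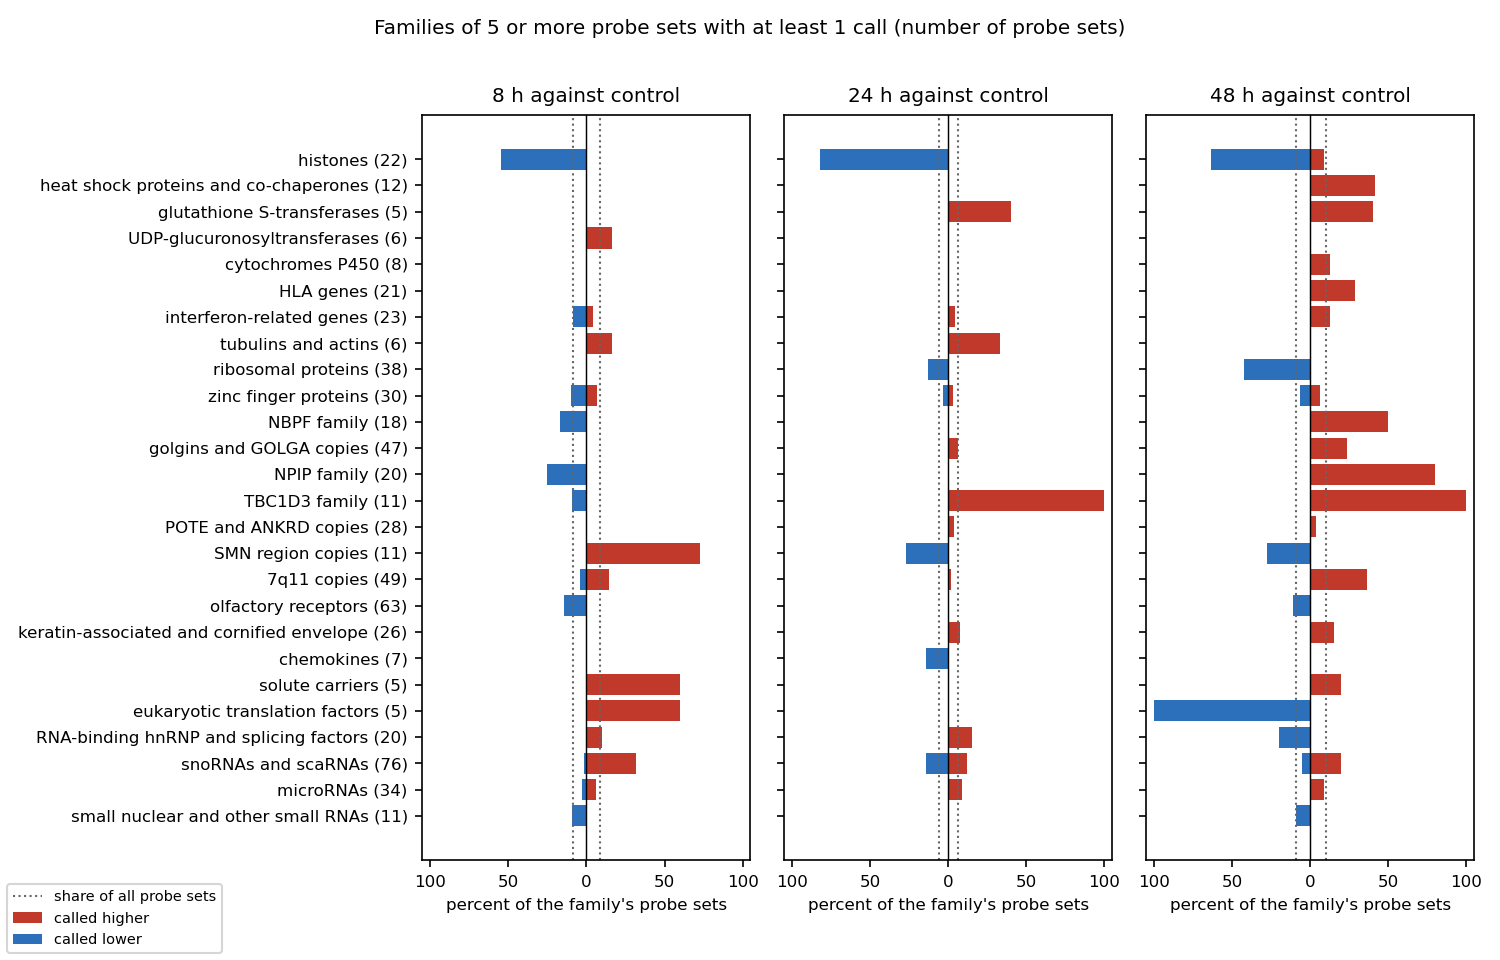
Share of each family's probe sets called higher (red, to the right) or lower (blue, to the left) than the controls at 8, 24 and 48 h, in percent, for families of 5 or more probe sets with at least 1 call; dotted lines mark the share of all probe sets called in that direction. Histones lean lower at each time, and the TBC1D3 and NPIP families lean higher at 48 h.

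Histone genes made up the family with the deepest falls. Of 22 histone probe sets, in 13 symbol combinations, 12 were called lower and none higher at 8 h, 18 lower and none higher at 24 h, and 14 lower and 2 higher at 48 h. Over all probe sets 8.41% were called lower at 8 h, 5.62% at 24 h and 8.95% at 48 h. For the 22 the median log2 fold change was -0.249, -0.716 and -0.545, against 0.018, 0.007 and 0.004 over all probe sets. Directions of these medians were the same under each scaling tried, and quantile normalization left 10 lower calls at 8 h, 18 at 24 h and 10 at 48 h, with none higher.

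The deepest fall among the 22 was that of the probe set naming H3C10 and H2AC13, a neighbouring H3 and H2A gene whose upstream sequences are printed above. Its log2 ratios were 0.07, -0.05 and 0.0 in the controls, -0.64, -0.68 and -0.67 at 8 h, -1.8, -2.0 and -1.9 at 24 h and -1.76, -1.81 and -1.59 at 48 h. Each treated group lay below the controls with no overlap, and the 24 and 48 h arrays lay below all 8 h arrays. The fall was 1.59-fold at 8 h, 3.74-fold at 24 h and 3.3-fold at 48 h (log2 -0.66, -1.90 and -1.72, SE 0.06, limma adjusted p = 2.99e-05, 3.79e-08 and 2.12e-08, n = 3). Probe sets naming H2AC13 alone and H3C10 alone changed by -0.54 and -0.59 at 8 h, -1.71 and -1.64 at 24 h and -1.53 and -1.22 at 48 h, all called.

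One of the probe sets naming H4C11 and H4C12, the pair that differs at 5 of 250 upstream bases, read -0.13, 0.13 and 0.0 in the controls, -0.85, -0.88 and -0.76 at 8 h, -1.31, -1.71 and -1.71 at 24 h and -1.55, -1.57 and -1.56 at 48 h. It fell by 0.83, 1.57 and 1.56 on the log2 scale (SE 0.10, adjusted p = 0.000119, 1.72e-06 and 8.82e-07), and no treated array overlapped the controls. The other probe set of the pair gave -0.81, -1.40 and -1.39. H3C4 with H2AC7, again an H3 and H2A pair, gave -0.40, -1.53 and -1.26.

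Histone H2A copies H2AC18 to H2AC21, named together by 2 probe sets, read -0.01, 0.02 and 0.0 in the controls, -0.57, -0.46 and -0.48 at 8 h, -1.1, -1.44 and -1.21 at 24 h and -1.11, -1.16 and -0.77 at 48 h in 1 of them. The fall was 0.51, 1.25 and 1.02 on the log2 scale (SE 0.10, adjusted p = 0.0041, 1.05e-05 and 2.67e-05). At 48 h replicate 3 was the least reduced. The 4 probe sets naming H3C13, H3C14 and H3C15 were called at 24 h, at -0.61 to -0.67, and at 48 h, at -0.51 to -0.62, and not at 8 h, at -0.05 to -0.07. Quantile normalization ended the 48 h call in all 4 (adjusted p 0.0573 to 0.0996).

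A second pair of H4 genes took another course. A probe set naming H4C14 and H4C15 read 0.06, -0.07 and 0.0 in the controls, -0.69, -1.06 and -0.89 at 8 h, -0.86, -0.91 and -0.93 at 24 h and 0.35, 0.26 and 0.23 at 48 h. The 8 and 24 h arrays lay below the controls and the 48 h arrays above them. It was lower by 0.88 and 0.90 on the log2 scale at 8 and 24 h and higher by 0.28 at 48 h (SE 0.08, adjusted p = 1.62e-05, 1.8e-05 and 0.024). From 24 to 48 h it rose by 1.18 (adjusted p = 1.07e-05), while the difference from 24 to 48 h was 0.02 in both probe sets naming H4C11 and H4C12 (adjusted p = 0.965 and 0.967). Leaving out control replicate 2 or 3, or 48 h replicate 1 or 2, ended the 48 h call (adjusted p 0.0515 to 0.0957), as did quantile normalization (adjusted p = 0.198). The second H4C14 and H4C15 probe set gave the same rounded fold changes.

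Probe sets naming H2B genes were also divided at 48 h, including 2 with the same names. A probe set naming H2BC18 and H2BP1 gave -0.61, -0.76 and -0.15, the last not called (adjusted p = 0.288), and another with the same names gave -0.24, -0.62 and -0.61, all called, the first not under quantile normalization (adjusted p = 0.404). The probe set naming these and H2BC21 gave -0.55, -0.81 and -0.24, and H2BC21 alone -1.12, -1.17 and -0.22. Neither was called at 48 h. A probe set for H2BC12, H2BC12L, H2BC17 and H2BC5 gave -0.26, -0.94 and -0.68, called at 24 and 48 h, while the probe set of H2BC12 alone gave -0.51, -0.88 and 0.06, called at 8 and 24 h. 

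Not called in any of the 5 comparisons between groups were the 3 probe sets naming the testis-type variants H2AB1, H2AB2 and H2AB3 (0.03 to 0.08 at the 3 times), and the probe set naming H3C6 and H3C11 (-0.20, -0.11 and 0.03). H3C11 alone was -0.20, -1.09 and -1.20, called at 24 and 48 h.

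**Figure D2:**
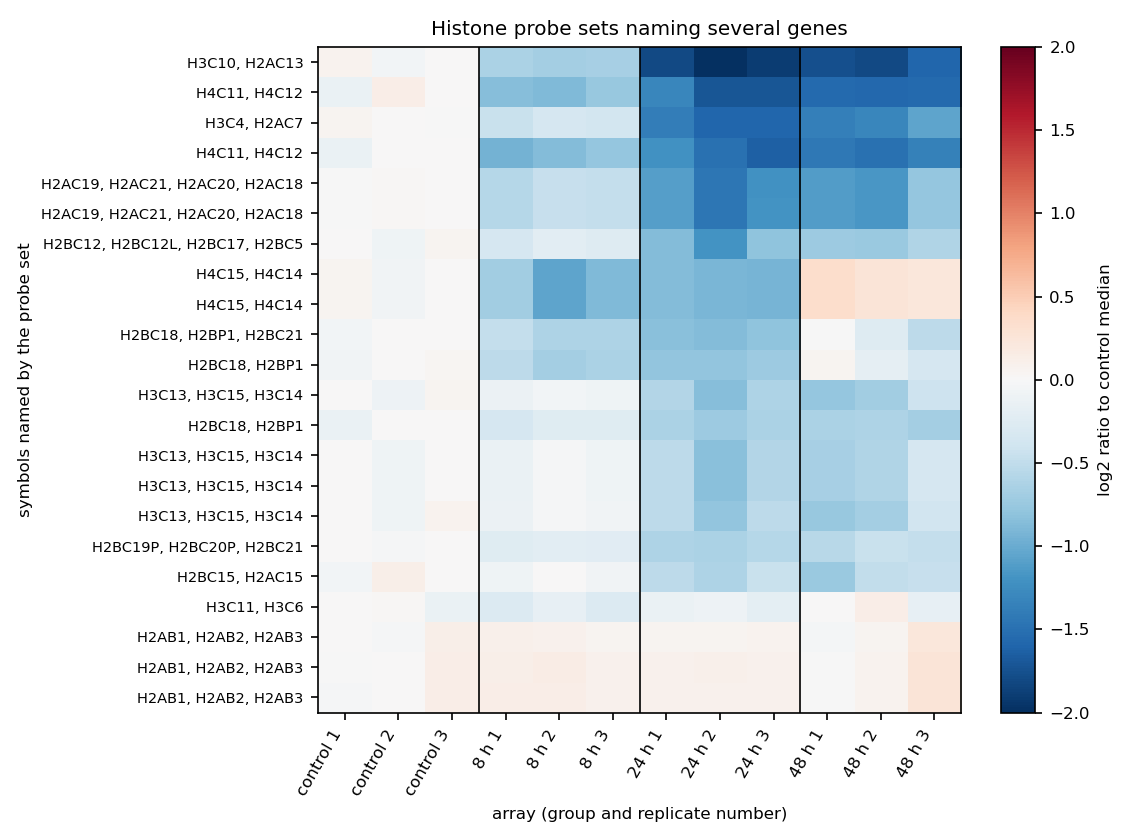
Log2 ratio to the control median (colour, blue lower and red higher, scale ending at -2 and 2) of the 22 histone probe sets (rows, by the symbols named) on each of the 12 arrays (columns, by group and replicate number). Rows at the top darken from 8 to 24 h and stay dark at 48 h, and the 2 rows naming H4C14 and H4C15 turn from blue to light red at 48 h.

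SnoRNAs and their hosts were called mostly higher at 8 h. Of 76 probe sets naming a snoRNA or the related Cajal body RNAs, 24 were higher and 1 lower at 8 h, when 8.81% of all probe sets were called higher. At 24 h 9 were higher and 11 lower, and at 48 h 15 were higher and 4 lower, with 6.08% and 9.87% of all probe sets called higher. From 8 to 24 h none rose and 32 fell, against 7.42% of all probe sets called lower in that step. Quantile normalization left 11 higher calls at 8 h, 2 at 24 h and 3 at 48 h, and 23 falls from 8 to 24 h.

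The 2 largest rises at 8 h among all probe sets naming several genes belonged to SNHG1, a host transcript whose introns carry a series of box C/D snoRNAs. The probe set naming SNHG1 and SNORD22 read -0.03, 0.04 and 0.0 in the controls, 1.41, 1.38 and 1.59 at 8 h, 0.84, 0.63 and 0.94 at 24 h and 1.39, 1.32 and 1.01 at 48 h. No treated array overlapped the controls, and the 8 h arrays were above all 24 h arrays. The rise was 2.74-fold at 8 h, 1.74-fold at 24 h and 2.35-fold at 48 h (log2 1.46, 0.80 and 1.23, SE 0.10, adjusted p = 2.47e-06, 0.000294 and 6.09e-06).

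SNHG1 with SNORD25 read 0.49, -0.27 and 0.0 in the controls, 1.5, 1.5 and 1.87 at 8 h, 0.92, 0.85 and 1.17 at 24 h and 1.16, 1.0 and 0.69 at 48 h. Its controls were widely spread and still lay below every treated array. The log2 rise was 1.55, 0.90 and 0.88 (SE 0.18, adjusted p = 0.000119, 0.00691 and 0.00516), and under quantile normalization none of the 3 was called (adjusted p 0.0532, 0.417 and 0.61). Others of the same host were higher at 8 h too, SNORD26 by 0.90, SNORD27 by 0.80 and SNORD31 by 0.78. At 24 h they were at 0.20, 0.00 and 0.24, none of them called, and at 48 h SNORD31 was higher by 0.83 while SNORD26 and SNORD27 were at 0.30 and 0.17. The SNORD26 call at 48 h (adjusted p = 0.0378) ended without control replicate 1 or 2, 8 h replicate 2, 24 h replicate 1 or 3 or 48 h replicate 1 or 2 (adjusted p 0.0515 to 0.153). Under quantile normalization the calls of SNORD31 at 8 and 48 h (adjusted p = 0.221 and 0.511) and of SNORD26 at 48 h (adjusted p = 0.231) were lost. The probe set with SNORD29 was not called at any of the 3 times (0.34, -0.23 and -0.02).

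SNHG12, a host of box H/ACA snoRNAs, was higher at 8 and 48 h in 3 of 4 probe sets. The one naming it with SNORA16A, SNORA61 and SNORA44 read 0.0, 0.07 and -0.04 in the controls, 0.77, 0.77 and 0.91 at 8 h, 0.44, 0.39 and 0.45 at 24 h and 0.78, 0.67 and 0.59 at 48 h, with no overlap between treated and control arrays. Log2 changes were 0.81, 0.41 and 0.67 (SE 0.06, adjusted p = 3.32e-06, 0.000671 and 1.02e-05). With SNORA61 alone the values were 0.91, 0.41 and 0.65, and with SNORA44 alone 0.58, 0.17 and 0.69, the second not called. Under quantile normalization the set with SNORA61 alone was not called at 24 or 48 h (adjusted p = 0.116 and 0.0542). The fourth, naming SNORA16A and SNHG12, was at 0.10, -0.59 and -0.06, none called.

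SNORD3A, which encodes the U3 RNA needed to process ribosomal RNA, was named with 4 copies of it and no host gene by 5 probe sets. One read 0.0, 0.29 and -0.04 in the controls, 0.65, 0.74 and 0.8 at 8 h, 0.78, 0.46 and 0.71 at 24 h and 0.77, 0.69 and 1.04 at 48 h. All treated arrays lay above the controls, and the rise was 0.65, 0.57 and 0.75 at the 3 times (SE 0.11, adjusted p = 0.00174, 0.00608 and 0.000589). The other 4 gave the same rounded changes. Under quantile normalization all 3 calls were lost for this probe set (adjusted p 0.335, 0.486 and 0.461) and for the other 4.

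Other probe sets naming a snoRNA with another gene rose at 8 h and returned. The one naming SNORD56 and NOP56, a core protein of box C/D particles, rose by 0.63 at 8 h (adjusted p = 3.5e-05) and was at 0.00 and -0.11 later. The probe set naming SNORD42B and CEP164 rose by 0.83 at 8 h (adjusted p = 0.00191). CEP164 alone was at 0.08 and not called, and whether CEP164 is the host of this snoRNA was not checked.

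Some passed through the control level. DKC1, the pseudouridine synthase of H/ACA particles, named with SNORA56, was higher by 0.38 at 8 h and lower by 0.34 at 24 h and 0.27 at 48 h (adjusted p = 0.00445, 0.0116 and 0.0241). The probe set of DKC1 alone gave 0.47, -0.23 and -0.57, all called. The 24 h call of the joint probe set was lost without 24 h replicate 3 (adjusted p = 0.0548), and the 48 h call without control replicate 1 or 2 or 48 h replicate 2 or 3 (adjusted p 0.0674 to 0.0786) or under quantile normalization (adjusted p = 0.0893). SNHG17 with SNORA71B gave 0.27, -0.49 and -0.23, where the 8 h call ended without control replicate 1 or 8 h replicate 3 (adjusted p 0.0566 to 0.0611) and its 48 h call without control replicate 2 or 3 or 48 h replicate 2 (adjusted p 0.0871 to 0.101). Quantile normalization ended both of these calls (adjusted p = 0.0689 and 0.213).

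The falls at 24 h were deepest where replicates were least alike. RPL7A with SNORD24 read -1.41, -0.68 and -1.72 at 24 h against -0.51, 0.0 and 0.02 in the controls, a change of -1.11 (SE 0.26, adjusted p = 0.0149), called no longer without control replicate 2 or 3 or 24 h replicate 1 or 3 (adjusted p 0.0545 to 0.0672) or under quantile normalization (adjusted p = 0.464). TAF1D with SNORD5 read -1.04, -0.51 and -1.31 against 0.0, 0.02 and -0.06, a change of -0.94 (SE 0.19, adjusted p = 0.00628), while TAF1D alone was at -0.03. In both, 24 h replicate 2 was the least reduced of its group. GAS5, a snoRNA host known from growth-arrested cells, with SNORD80 was at -1.11 (SE 0.32, adjusted p = 0.0473), a call lost without any 1 array other than control replicate 1, 24 h replicate 2 and 48 h replicate 3 (adjusted p 0.0504 to 0.192) and under quantile normalization (adjusted p = 0.478).

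**Figure D3:**
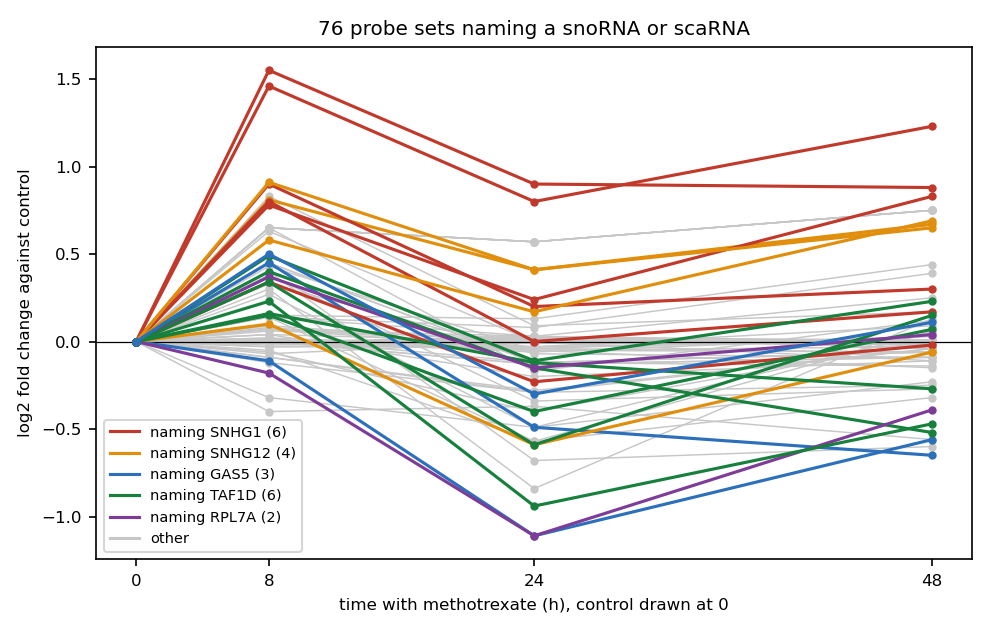
Log2 fold change against control (vertical axis) at 8, 24 and 48 h with methotrexate (horizontal axis, control drawn at 0) for the 76 probe sets naming a snoRNA or Cajal body RNA; coloured lines name the host SNHG1, SNHG12, GAS5, TAF1D or RPL7A, and grey lines the others. The lines naming SNHG1 with SNORD22 or SNORD25 stand highest at 8 h, and every coloured line lies lower at 24 h than at 8 h.

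USP18, an interferon-induced gene whose product removes the ubiquitin-like ISG15 from proteins, was named with its pseudogene USP41P. That probe set read 0.0, 0.11 and -0.03 in the controls, -1.28, -1.44 and -1.42 at 8 h, -1.24, -1.25 and -0.92 at 24 h and -0.98, -0.94 and -0.84 at 48 h. Every treated array lay below the controls. It fell 2.65-fold at 8 h, 2.23-fold at 24 h and 1.92-fold at 48 h (log2 -1.40, -1.16 and -0.94, SE 0.09, adjusted p = 8.92e-07, 5.14e-06 and 1.35e-05), and USP18 alone gave -1.15, -1.0 and -0.76, all called.

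Of the 23 probe sets of the interferon-related list, which does not hold USP18, 1 was higher and 2 were lower at 8 h, 3 of 23 called against 17.2% of all probe sets, with a median change of 0.016. Those lower named the TRIM6 and TRIM34 genes with their read-through, at -0.30, and guanylate-binding proteins. The probe set naming GBP1, GBP3 and GBP1P1, interferon-induced GTPases and a pseudogene, read 0.0, 0.06 and -0.15 in the controls, -0.53, -0.8 and -0.86 at 8 h, -0.15, -0.11 and -0.01 at 24 h and -0.23, -0.17 and -0.21 at 48 h. The 8 h arrays lay below all others, and the change was -0.70 at 8 h (SE 0.08, adjusted p = 9.89e-05) and -0.06 and -0.18 later, not called. The 2 probe sets naming LGALS9, LGALS9B and LGALS9C, copies of the sugar-binding protein galectin-9, fell by 0.81 and 0.77 at 8 h (adjusted p = 2.85e-05 and 5.93e-05) and were not called at 24 and 48 h. LGALS9 alone fell by 0.67 at 8 h. Of 21 HLA probe sets none was called at 8 or 24 h and 6 were higher at 48 h, when 9.87% of all probe sets were. These 6 held only 2 symbol combinations, 3 naming HLA-B and HLA-C at 0.30 to 0.35 and 3 naming HLA-B and HLA-F. None of the 6 was called under quantile normalization, and 3 were without 48 h replicate 3.

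Further falls at 8 h came back by 48 h. TMPRSS2, a membrane serine protease, and FKBP5, a co-chaperone of steroid receptors, were named together with LOC285847 by a probe set that read 0.1, 0.0 and -0.01 in the controls, -1.12, -1.22 and -1.27 at 8 h, -0.39, -0.33 and -0.39 at 24 h and 0.07, 0.02 and -0.03 at 48 h. It was lowest at 8 h, part-way at 24 h and at the control level at 48 h, with log2 changes of -1.23, -0.40 and -0.01 (SE 0.05, adjusted p = 5.81e-08 and 0.000309 at 8 and 24 h). The genes named here lie on different chromosomes, and which of them was measured is not known from these files.

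PRSS2 with PRSS3P2, a trypsinogen gene and a pseudogene, was lower by 0.86 at 8 h, at -0.10 at 24 h and lower by 0.46 at 48 h (adjusted p = 1.6e-06 and 0.000123 at 8 and 48 h). LY75, an endocytic receptor, with the read-through LY75-CD302 was lower by 0.60 and 0.64 at 8 and 24 h and at 0.04 at 48 h. All 7 probe sets naming exactly PCMTD2 and LINC00266-1 were lower at 8 h, by 0.56 to 0.85, and so were all 9 that also name SEPTIN14, by 0.67 to 0.89. Under quantile normalization 5 of the 7 calls (adjusted p 0.0526 to 0.296) and all 9 (adjusted p 0.102 to 0.311) were lost. PCMTD2 alone fell by 0.41 at 8 h, and SEPTIN14 alone was at -0.01.

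Gene copies of chromosome 7q11, a region flanked by segmental duplications, contributed 49 probe sets. Of these 7 were higher and 2 lower at 8 h, 1 higher and none lower at 24 h, and 18 higher and none lower at 48 h. That is 18.4%, 2.04% and 36.7% called, against 17.2%, 11.7% and 18.8% of all probe sets, so the share at 8 h was near that of all. Quantile normalization left no higher and 2 lower calls at 8 h and 4 higher ones at 48 h. Both falls at 8 h named GTF2IRD2 and GTF2IRD2B, transcription factor copies. One of them read 0.0, 0.04 and -0.11 in the controls, -0.76, -1.04 and -1.24 at 8 h, -0.09, 0.02 and -0.01 at 24 h and 0.5, 0.34 and 0.15 at 48 h. All 8 h arrays lay below the controls, the 24 h arrays among them and the 48 h arrays above. The changes were -0.99 at 8 h and 0.35 at 48 h (SE 0.11, adjusted p = 8.09e-05 and 0.0458), and -0.78 and 0.34 in the other (SE 0.08, adjusted p = 4.59e-05 and 0.0111).

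The 48 h call of the former was lost without any 1 array other than 8 h replicates 1 and 3 and 48 h replicate 3 (adjusted p 0.056 to 0.153), and that of the latter was kept with any 1 array left out. Under quantile normalization both were lost (adjusted p = 0.199 and 0.0654). Copies of STAG3, a meiotic cohesin subunit, rose at 48 h alone: 3 probe sets naming STAG3L1, STAG3L2, STAG3L3 and a read-through of STAG3L5P, 1 of them also STAG3, were higher by 0.54 to 0.56 (adjusted p = 8.21e-06 to 1.13e-05). STAG3 alone was at 0.09 and not called.

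**Figure D4:**
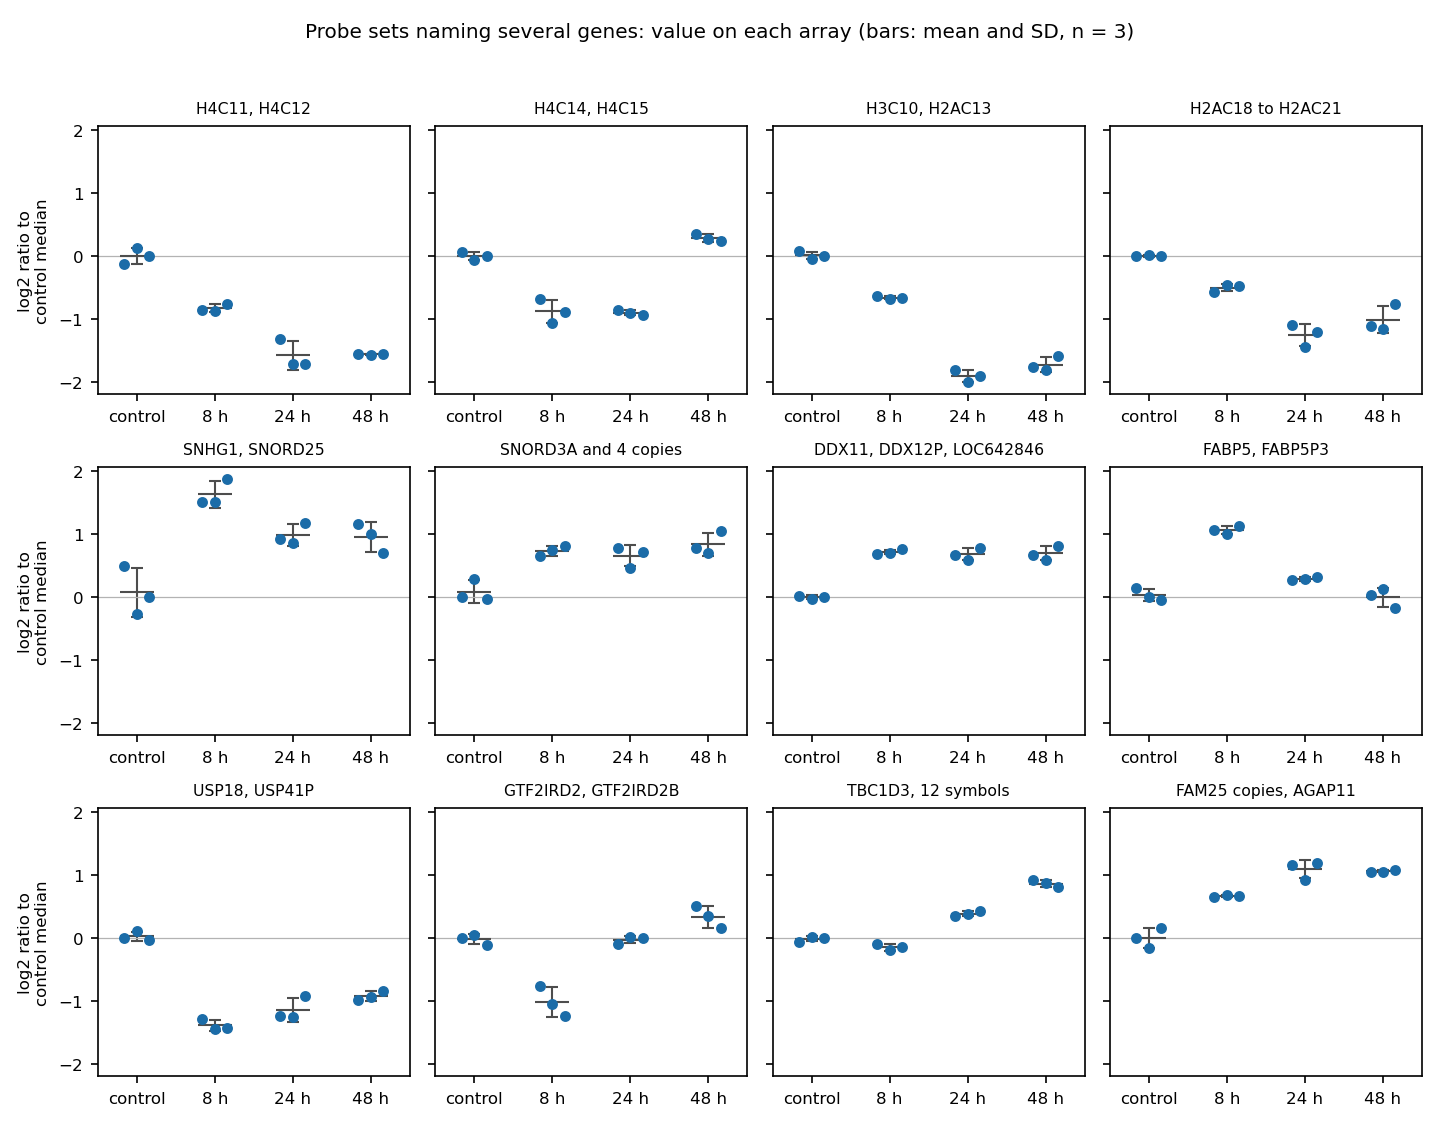
Log2 ratio to the control median (vertical axis) on each array for 12 probe sets naming several genes, by group (horizontal axis); points are the 3 arrays and bars the mean and SD. The upper row holds histone genes, the middle row rises at 8 h, and the lower row USP18 with USP41P, GTF2IRD2 with GTF2IRD2B, TBC1D3 and FAM25 copies.

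TBC1D3, a hominoid gene family with a domain found in Rab GTPase-activating proteins, was named by 11 probe sets in 2 symbol combinations. All 11 were higher at 24 and at 48 h, and all 11 also rose from 8 to 24 h and from 24 to 48 h, steps in which 7.18% and 4.08% of all probe sets were called higher. At 8 h 1 was lower, and 7 were when each array was centred on its median. The median change was -0.134, 0.388 and 0.866. One naming 12 symbols from TBC1D3 to TBC1D3P2 read -0.06, 0.02 and 0.0 in the controls, -0.09, -0.2 and -0.15 at 8 h, 0.34, 0.38 and 0.43 at 24 h and 0.91, 0.87 and 0.8 at 48 h. The groups at 24 and 48 h overlapped neither with the controls nor with each other, and the change at 48 h was 0.87, or 1.83-fold (SE 0.05, adjusted p = 2.27e-07). The 11 share nearly all names and are not independent observations. Under quantile normalization 10 were called at 24 h and 11 at 48 h, and none between 24 and 48 h.

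NPIP, NBPF and GOLGA copies are other families expanded by duplication in primates. Of 20 NPIP probe sets 5 were lower at 8 h, none was called at 24 h and 16 were higher at 48 h, when 9.87% of all probe sets were, with median changes of 0.032, 0.014 and 0.263. Of 18 NBPF probe sets 3 were lower at 8 h and 9 higher at 48 h, with medians of -0.133, -0.009 and 0.174. Of 47 golgin probe sets 3 were higher at 24 h and 11 at 48 h, with medians of -0.003, 0.075 and 0.074. Without 48 h replicate 3 the higher calls at 48 h were 20, 14 and 12, and under quantile normalization 0, 0 and 2, although the 48 h medians kept their sign (0.20, 0.11 and 0.07). The 2 probe sets naming GOLGA8A, GOLGA8B, GOLGA8CP and GOLGA8DP were higher by 0.32 and 0.33 at 24 h and 0.72 and 0.71 at 48 h (SE 0.06, adjusted p = 1.03e-05 and 9.35e-06 at 48 h).

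Several smaller sets of copies rose and stayed high. The 3 probe sets naming AGAP11 with FAM25A, FAM25BP, FAM25C and FAM25G were higher by 0.67 at 8 h, 1.08 at 24 h and 1.06 at 48 h. One read 0.0, -0.16 and 0.15 in the controls, 0.65, 0.68 and 0.67 at 8 h, 1.15, 0.92 and 1.19 at 24 h and 1.04, 1.05 and 1.08 at 48 h, with no overlap of treated and control arrays (SE 0.08, adjusted p = 0.000128, 5.07e-06 and 3.22e-06). OVOS1P and OVOS2P, pseudogenes of an ovostatin-like protease inhibitor, were named by 2 probe sets, of which 1 read 0.03, 0.0 and -0.39 in the controls, 0.74, 0.57 and 0.68 at 8 h, 1.1, 1.25 and 1.35 at 24 h and 1.59, 1.43 and 1.25 at 48 h. It rose to 2.91-fold at 48 h (log2 0.78, 1.35 and 1.54, SE 0.12, adjusted p = 0.000628, 1.68e-05 and 3.27e-06), the 8 h call being lost under quantile normalization (adjusted p = 0.0578), and the other gave 0.56, 1.10 and 1.28.

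DDX11, a DNA helicase with a part in sister chromatid cohesion, was named with DDX12P and LOC642846 by 3 probe sets. One read 0.02, -0.03 and 0.0 in the controls, 0.68, 0.7 and 0.75 at 8 h, 0.67, 0.59 and 0.77 at 24 h and 0.67, 0.59 and 0.81 at 48 h. Its changes of 0.71, 0.67 and 0.69 (SE 0.06, adjusted p = 1.19e-05, 2.41e-05 and 1.12e-05) were alike at the 3 times, and the other 2 lay between 0.69 and 0.78. CAV2, a caveola coat protein, with LOC105375463 gave 0.76, 1.04 and 1.46 (SE 0.12, adjusted p = 0.000988, 0.000167 and 7.25e-06). TRIM16 with TRIM16L gave 0.49, 0.67 and 0.50, and TRIM16 alone 0.47, 0.59 and 0.45, all called. GSTT2 with GSTT2B, glutathione transferases, were not called at 8 h (0.11) and were higher by 0.47 at 24 h and 0.65 or 0.66 at 48 h in both probe sets, the only called ones among 5 of that family.

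The fatty acid binding protein gene FABP5 and its pseudogene FABP5P3 were named by 2 probe sets that rose mainly at 8 h. One read 0.14, 0.0 and -0.05 in the controls, 1.06, 1.0 and 1.12 at 8 h, 0.26, 0.28 and 0.31 at 24 h and 0.03, 0.12 and -0.18 at 48 h. The 8 h arrays stood far above all others. The changes were 1.03 at 8 h (SE 0.07, adjusted p = 2.95e-06), 0.25 at 24 h and -0.04 at 48 h, and the other probe set rose by 1.06 at 8 h. The 24 h call (adjusted p = 0.0452) was lost without any 1 array other than control replicate 1 and 48 h replicates 2 and 3 (adjusted p 0.0559 to 0.147), and under quantile normalization in both probe sets (adjusted p 0.438 and 0.542).

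SMN1 and SMN2, which encode a protein that assembles spliceosomal particles, and the duplicated genes around them gave 11 probe sets. At 8 h 8 were higher, at 24 h 3 were lower and at 48 h 3 were lower, and all 11 fell from 8 to 24 h. Of all probe sets 8.81% were called higher at 8 h, 5.62% lower at 24 h and 8.95% lower at 48 h. From 8 to 24 h 7.42% of all were called lower. The 5 naming GTF2H2 copies, a subunit of transcription and repair factor TFIIH, rose by 0.44 to 0.50 at 8 h and were not called later. The 3 naming SMN1 and SMN2 were higher by 0.18 or 0.19 at 8 h, at -0.06 at 24 h and lower by 0.19 or 0.20 at 48 h. The 3 naming SERF1A and SERF1B were lower by 0.28 at 24 h. Quantile normalization left 5 higher at 8 h, 3 lower at 24 h and none lower at 48 h. It also ended the calls from 8 to 24 h in the 3 sets of SMN1 and SMN2 (adjusted p 0.0659 to 0.108). The same held for the 3 sets of SERF1A and SERF1B (adjusted p 0.133 to 0.155). In these last 3 the call for that step was also lost without any of 8 or 9 single arrays (adjusted p 0.0501 to 0.161).

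Some genes of protein synthesis and RNA binding fell at 48 h. Of 38 ribosomal protein probe sets none was called at 8 h, 5 were lower at 24 h and 16 at 48 h, with a median of -0.12 at 48 h, when 8.95% of all probe sets were called lower. Quantile normalization left 1 and 0 of these calls, and 10 remained lower at 48 h without 48 h replicate 3. All 5 naming translation factor copies were lower at 48 h: 3 naming EIF5A and EIF5AL1 by 0.35 to 0.37, and 2 naming EIF3C and EIF3CL, 1 of them by 0.27. The EIF5A sets had been higher by 0.26 to 0.28 at 8 h, calls that were lost in all 3 without control replicate 1 or 2 or 8 h replicate 2 or 3, and in 2 of them also without control replicate 3, 24 h replicate 1 or 48 h replicate 2, and in 1 without 8 h replicate 1 (adjusted p 0.0519 to 0.153). At 48 h 1 of the 3 calls was lost without 48 h replicate 2 (adjusted p = 0.0524). Quantile normalization ended the EIF5A calls in all 3 at 8 h (adjusted p 0.271 to 0.283) and at 48 h (adjusted p 0.0658 to 0.0975). RBMX and RBMXL1, RNA-binding splicing proteins, named by 1 probe set, read -0.01, 0.0 and 0.07 in the controls, 0.13, 0.07 and 0.16 at 8 h, 0.33, 0.31 and 0.35 at 24 h and -0.35, -0.41 and -0.45 at 48 h. The value was highest at 24 h and lowest at 48 h without overlap, at 0.31 and -0.42 (SE 0.04, adjusted p = 0.000435 and 2.8e-05).

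Of 12 heat shock probe sets none was called at 8 or 24 h and 5 were higher at 48 h, when 9.87% of all probe sets were. All 5 are copies of 1 symbol combination, naming HSPA1A and HSPA1B, whose upstream sequences are printed above, and they rose by 0.42 or 0.43 (adjusted p = 0.000141 to 0.00155). One read -0.03, 0.09 and 0.0 in the controls, 0.23, 0.16 and 0.12 at 8 h, -0.1, -0.06 and 0.02 at 24 h and 0.43, 0.38 and 0.51 at 48 h, so that the 48 h arrays lay above every other array. Quantile normalization left 3 of the 5 calls.

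Some genes crossed the control level between times. CD74, the invariant chain of HLA class II, named with ROS1, read 0.08, -0.06 and 0.0 in the controls, -0.32, -0.22 and -0.31 at 8 h, -0.11, -0.21 and -0.02 at 24 h and 0.65, 0.69 and 0.9 at 48 h. It was lower by 0.29 at 8 h and higher by 0.74 at 48 h (SE 0.07, adjusted p = 0.0147 and 2.03e-05). The 8 h call ended without control replicate 1 or 8 h replicate 1 or 3 (adjusted p 0.0519 to 0.0641) or under quantile normalization (adjusted p = 0.205). PIR, an iron-dependent nuclear protein, with the read-through PIR-FIGF was higher by 0.29 at 8 h and lower by 0.56 at 48 h (adjusted p = 0.0168 and 0.000231). The 8 h call ended without control replicate 3 or 8 h replicate 1 (adjusted p 0.0524 to 0.0686) or under quantile normalization (adjusted p = 0.245). SDCBP2 with its read-through FKBP1A-SDCBP2 was at 0.10 at 8 h, not called, and higher by 0.88 and 0.98 at 24 and 48 h (adjusted p = 4.42e-05 and 1.02e-05).

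FAM72A, FAM72B and FAM72D, duplicated genes, were lower at 24 h in all 4 probe sets, by 0.68 to 0.87 (adjusted p = 0.000419 to 0.00212). At 48 h 3 of the 4 were lower by 0.31 or 0.32, calls that ended without control replicate 1 or 2 or 48 h replicate 2 or 3 (adjusted p 0.0534 to 0.151 with these and, for 1 of them, 8 h replicate 2 or 3 or 24 h replicate 1 left out). Quantile normalization ended 1 of the 4 calls at 24 h (adjusted p = 0.093) and all 3 at 48 h (adjusted p 0.563 to 0.676). The 3 naming FAM27E2 and FAM27E3 were lower by 0.36 or 0.37 at 8 h, 0.46 or 0.47 at 24 h and 0.87 to 0.89 at 48 h. Their 8 h calls ended without control replicate 1 or 2 or 8 h replicate 2 or 3 (adjusted p 0.0529 to 0.103), and 2 of the 3 under quantile normalization (adjusted p 0.0515 and 0.0634).

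Of 34 probe sets naming a microRNA 2 were higher and 1 lower at 8 h, and 3 higher and none lower at 24 and at 48 h. That is 8.82% called at each time, against 17.2%, 11.7% and 18.8% of all probe sets. Probe positions were not checked, so whether these probe sets measure precursor, host or mature forms is not known here. GABRE, a GABA receptor subunit, with MIR224 was lower by 0.39 at 8 h (SE 0.11, adjusted p = 0.0324), while GABRE alone was at -0.09. KRT19P2 with MIR492 was higher by 0.54 at 24 h (SE 0.12, adjusted p = 0.00932). AOPEP with MIR27B was higher by 0.25 at 48 h (SE 0.08, adjusted p = 0.049) and AOPEP alone by 0.20. The call for GABRE with MIR224 ended without control replicate 1 or 2 or any 8 h replicate (adjusted p 0.0549 to 0.136). That for AOPEP with MIR27B was lost without any 1 array other than 8 h replicates 1 and 2 and 48 h replicate 3 (adjusted p 0.053 to 0.17). Under quantile normalization none of these 3 was called (adjusted p 0.122 for GABRE, 0.0786 for KRT19P2 and 0.351 for AOPEP). The 2 probe sets naming CYTOR and MIR4435-2HG, duplicated long non-coding RNA genes, were higher at each time, by 0.29 to 0.31, 0.47 to 0.52 and 0.50 to 0.51. Their 8 h calls were lost under quantile normalization (adjusted p = 0.164 and 0.247).

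No probe set named 2 or more metallothioneins, aldo-keto reductases or sulfotransferases. The probe set naming MT1L, of the metallothionein family, and NUTF2 was not called at any time (0.07, 0.09 and 0.02). Of 6 naming UDP-glucuronosyltransferases 1, naming the UGT1A cluster, was higher by 0.25 at 8 h (adjusted p = 0.00115) and not called later. No probe set in 10 families, 223 in all, was called in any of the 5 comparisons: 79 of cancer-testis families, 42 of Y-linked testis families, 38 of immune receptor clusters, 25 of defensins, 15 of USP17, 8 of RANBP2 and RGPD copies, 7 of gonadotropin and placental lactogen clusters, 4 of amylases, 3 of protocadherins and 2 of pregnancy-specific glycoproteins. Of all 1752 probe sets naming several genes, 654 were called in 1 or more of the 5 comparisons. That share was not counted over all probe sets. Levels before the drug are lost, so genes that were not expressed and genes that did not change cannot be told apart here. Olfactory receptors, 63 probe sets, gave 9 lower at 8 h and 7 at 48 h, none of them called under quantile normalization. That is 14.3% and 11.1%, in only 5 and 4 symbol combinations, where 8.41% and 8.95% of all probe sets were called lower.

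Probe sets with identical names mostly gave similar fold changes. They are not independent of each other, and fold changes near 0 agree by this measure whatever the names. Of 364 symbol combinations with 2 or more probe sets, 303 (83.2%) had all their fold changes within 0.1 log2 at the 3 times, the median of the widest range was 0.033, and none was called in both directions at 1 time. In 5 combinations they differed by over 0.3 at some time. They named FBXW10 with FBXW10B (range 0.698 at 24 h), H2BC18 with H2BP1 (0.461 at 48 h), HYDIN with HYDIN2 (0.453 at 24 h), FAM27B with LINC01597 (0.324 at 48 h) and PGM5 with PGM5P2 (0.301 at 8 h). Among the 4 that name FBXW10 and FBXW10B, 3 were called at each time, and 1 read -0.44, 0.0 and 0.06 in the controls, 0.37, 0.44 and 0.11 at 8 h, 0.9, 1.0 and 0.9 at 24 h and 0.55, 0.58 and 0.66 at 48 h. The changes of this one were 0.43, 1.06 and 0.73 (adjusted p = 0.026, 0.000125 and 0.00108), and its 8 h call ended without control replicate 1 or 8 h replicate 1 or 2 (adjusted p 0.064 to 0.109). Under quantile normalization all 3 were called at 24 h and none at 8 or 48 h. FBXW10B alone was at 0.03, 0.03 and 0.01 at 8, 24 and 48 h and was not called.

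**Figure D5:**
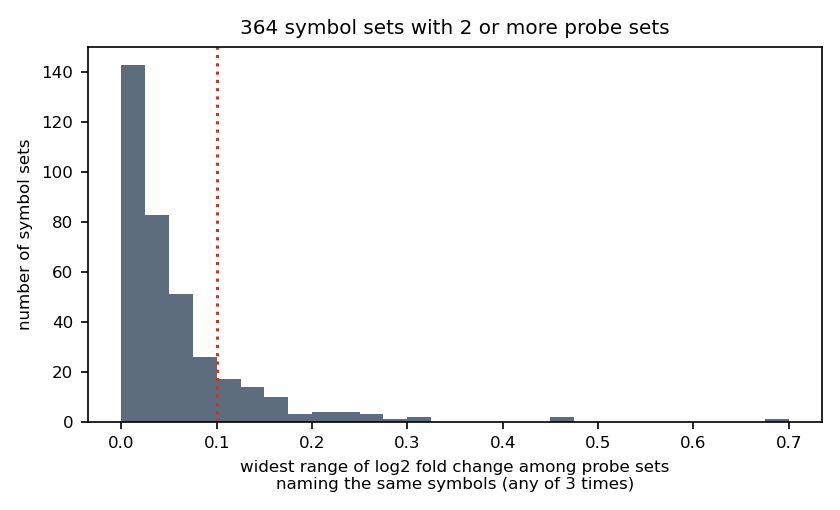
Number of symbol combinations (vertical axis) by the widest range of log2 fold change among probe sets with the same names at any of the 3 times (horizontal axis, log2) for the 364 combinations with 2 or more probe sets. The dotted line marks 0.1, below which 303 lie.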

How the data were processed

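The deposited values are log2 expression ratios for 28869 probe sets on 12 arrays, processed with RMA and annotated on hg19 per the submitters' processing notes, which give no version. In every probe set the median of the 3 control arrays is exactly 0, so the deposited values are ratios to that median. No source states the base of the logarithm, and 2 was taken from RMA. Values were used without further scaling or filter.

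One mean per group was fitted over all probe sets with limma 3.58.1 in R 4.3.3 (lmFit, eBayes), and p-values were adjusted by Benjamini-Hochberg over all 28869 probe sets in each of 5 comparisons: each time against control, 24 h against 8 h and 48 h against 24 h. A probe set was called at an adjusted p under 0.05. The 48 h against 8 h comparison was added after the data were seen. Intervals are given as standard errors, and the small number of arrays limits the precision. Calls also depended on the scaling and on single arrays, as given below. In simulated data for 8 h against control, limma recovered 92% of changes of 0.5 and 100% of changes of 1.0 (100 probe sets each), with 10 false calls. The simulated noise was normal, independent and equally wide on all arrays for a given probe set, as limma assumes. The real arrays differ from this, with 48 h replicate 3 standing apart, so these rates may not hold for them.

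Gene names come from the platform annotation, with 2206 of 2218 gene IDs found in the RefSeq gene table. Members and gene lists were chosen with earlier results of these data known. Named were the 8 largest called changes each way without overlap against control and 4 each way between times, leaving out unnamed loci and small RNAs, up to 4 called probe sets of each family (or the 2 with the lowest F test p), and a short list of genes whatever their p. Others, among them DDX11, TMPRSS2, LGALS9 and SNHG1, were chosen after their values were seen. Families were defined by symbol patterns. Alternatives were quantile normalization, median centring, array weights, 2-group fits, stricter thresholds, a replicate block and leaving out each array.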

Additional observations from a re-analysis of the deposited data

Results flagged for a closer look

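Each difference here was singled out because a probe set was called in opposite directions at different times and the difference between those times was itself called with limma. The 48 h against 8 h comparison behind most of them was added after the data were seen. Of the histone genes, both probe sets naming H4C14 and H4C15 were lower at 8 and 24 h and higher at 48 h. The difference from 24 to 48 h was 1.18 on the log2 scale (SE 0.08, adjusted p = 1.07e-05) and that from 8 to 48 h was 1.16 in each. As given with the values, the 48 h call ended when any of 4 single arrays was left out.

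Among snoRNA hosts, DKC1 with SNORA56 went from higher at 8 h to lower, with differences of -0.72 at 24 h and -0.65 at 48 h (SE 0.08, adjusted p = 7.94e-05 and 6.08e-05). SNHG17 with SNORA71B differed from 8 h by -0.75 at 24 h and -0.49 at 48 h (SE 0.06, adjusted p = 2.04e-05 and 0.000148).

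Duplicated genes that went from lower at 8 h to higher later were GTF2IRD2 with GTF2IRD2B, at 1.34 and 1.13 from 8 to 48 h in its 2 probe sets (adjusted p = 4.68e-06 and 1.65e-06). In a TBC1D3 probe set of 12 symbols the difference was 0.52 from 8 to 24 h and 1.0 from 8 to 48 h. Its call at 8 h (-0.14, adjusted p = 0.041) ended without any of 8 single arrays (adjusted p 0.0528 to 0.161). In 2 NBPF probe sets of 12 symbols (NBPF1 and 11 more) the differences were 0.42 and 0.39, and their 8 h calls ended without any of 8 or 4 single arrays. CD74 with ROS1 differed by 1.03 from 8 to 48 h (SE 0.07, adjusted p = 1.21e-06).

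In the other direction, the 3 probe sets naming EIF5A and EIF5AL1 differed by -0.64, -0.63 and -0.63 from 8 to 48 h, and the 3 naming SMN1 and SMN2 by -0.37, -0.39 and -0.37. PIR with PIR-FIGF differed by -0.85 (SE 0.07, adjusted p = 6.7e-06). RBMX with RBMXL1 went from higher at 24 h to lower at 48 h, a difference of -0.73 (SE 0.04, adjusted p = 4.68e-06).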

How the results depend on the processing

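Quantile normalization left 71 higher and 52 lower at 8 h, 76 and 60 at 24 h, 94 and 50 at 48 h, 82 and 87 from 8 to 24 h, 20 and 9 from 24 to 48 h, and 285 by the F test. By construction it gives every array the same spread, whereas the SD over probe sets was 0.0593 to 0.094 on control arrays and 0.193 to 0.281 on treated ones. Array weights, which gave 48 h replicate 3 a weight of 0.238, called 238 lower at 8 h, 220 higher and 190 lower at 24 h, 240 lower at 48 h, and 281 higher and 190 lower from 24 to 48 h. A fit of those groups alone called 60 and 25 from 24 to 48 h; the cause was not tested. At an adjusted p under 0.01, 82 were lower at 8 h, 60 at 24 h and 89 at 48 h, 92 higher and 111 lower from 8 to 24 h, and 54 and 23 from 24 to 48 h. With a change of at least 1.5-fold also required, 27 and 34 were called at 8 h, 15 and 27 at 24 h, 45 and 16 at 48 h, 27 and 32 from 8 to 24 h, and 7 and 3 from 24 to 48 h.

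With each array left out in turn, 133 to 191 were higher and 91 to 170 lower at 8 h, 89 to 149 and 64 to 122 at 24 h, 220 to 267 and 106 to 159 at 48 h, 101 to 172 and 127 to 215 from 8 to 24 h, 64 to 149 and 23 to 58 from 24 to 48 h, and 544 to 661 by the F test. The lowest of these came without control replicate 2 (91 lower at 8 h, 106 at 48 h), 8 h replicate 2 (101 higher from 8 to 24 h, 544 by the F test), 24 h replicate 1 (64 higher from 24 to 48 h) and 24 h replicate 3 (64 lower at 24 h, 23 lower from 24 to 48 h). Same-numbered arrays were not consistently alike: 9 of 18 same-numbered pairs correlated above 0.1 (-0.412 to 0.411). Among pairs with different numbers, 24 h replicate 2 correlated at 0.548 with 48 h replicate 1 and at -0.602 with 48 h replicate 3. The deviations were taken from means of 3 arrays, so this check cannot exclude pairing. With the replicate number as a block 167 were higher and 150 lower at 8 h, 117 and 97 at 24 h, 266 and 155 at 48 h, 157 and 183 from 8 to 24 h, 119 and 55 from 24 to 48 h, and 619 by the F test.

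Of 504 calls in the named probe sets, 269 were kept under every alternative other than the stricter thresholds, 235 were lost under at least 1, 227 of them under quantile normalization, and none changed direction. With 3 arrays a group, differences near the median standard error of 0.0599 were not detectable, and no value can be given to 1 copy of a gene.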
